A study of Homo sapiens with 8 samples.

Results

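The comparison described here is the knockdown of IL13RA2 in cells that received no added IL-13. Its members are 4 of the 8 arrays of the series, chosen by the construct and treatment in the column headings: 2 of mock-treated MIV-Luc-shIL13Rα2#2 cells and 2 of mock-treated MIV-Luc-shSCR cells. All groups share the same parent. MIV-Luc is the luciferase-expressing form of MCF10CA1a, a human breast carcinoma line that stands at the metastatic end of the MCF10A progression series and is classed as basal-B. The cells of one line carried a lentiviral hairpin against IL13Rα2 and those of the other a scrambled hairpin (shSCR), each as a drug-selected pool, so both lines had been transduced and selected. The 4 arrays outside the comparison came from the same pools after 16 h with 20 ng/ml IL-13. The study took 2 biological replicates per condition. With 1 hairpin and 1 pool per construct, loss of the receptor, other targets of the hairpin and any difference between the pools cannot be told apart, and p-values measure the spread between arrays of the same pool.

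IL-13 is a cytokine of type 2 immunity. It binds IL13Rα1, which pairs with IL4Rα and passes the signal through Janus kinases to the transcription factor STAT6. IL13Rα2 binds IL-13 more tightly, has a short cytoplasmic tail and is best known as a decoy that takes the ligand away from the signaling pair. The comparison asks which genes differ when the decoy is lowered and no ligand is added.

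Values are log2 expression after the authors' RMA normalization, so a difference of 1 is a 2-fold change, and log2 values of different genes were not compared as levels. Arrays are numbered as in the headings: arrays 1 and 2 are mock shSCR, arrays 5 and 6 mock shIL13Rα2#2, arrays 3 and 4 IL-13-treated shSCR, and arrays 7 and 8 IL-13-treated shIL13Rα2#2. The array medians lay between 5.02 and 5.06, and the SD of 2 arrays within a group had a median of 0.102 over all features and groups. Pearson's r across features was 0.992 to 0.993 within groups and 0.988 to 0.993 between groups, so no array stood apart. Precision is limited by the number of arrays. Of the markers of basal-like breast epithelium, KRT5 read 9.82 to 9.98, CD44 11.2 to 11.3 and VIM 7.90 to 8.55 over the 4 mock arrays. KRT14 read 6.74 to 7.04, KRT17 8.22 to 8.53, KRT6A 8.21 to 8.40 and ITGB4 5.82 to 6.28. Of the luminal and hormone receptor markers, the estrogen receptor gene ESR1 read 4.0 to 4.39 and the progesterone receptor gene PGR 3.03 to 3.45. The luminal keratins KRT8, KRT18 and KRT19 read 9.90 to 10.4, 8.75 to 9.60 and 4.955 to 5.23. These readings are given gene by gene for part of each list, and no ranking of basal-like against luminal markers is drawn from them.

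Without IL-13, the target gene IL13RA2 and ARL14 were lower in the knockdown cells than in shSCR cells. In the same comparison 14 genes were higher, led by CASP14, SULT1E1, GPX2, TMPRSS15 and CEACAM5. A gene was called where limma gave a Benjamini-Hochberg adjusted p under 0.05 and a fold change above 2. By this rule 16 genes and 3 features without a symbol were called, 19 features in all or 0.0652% of the 29141 tested. Dropping the fold limit added 1 gene, NT5E, and brought the share to 0.0686%, of which 0.0549% of all features were higher and 0.0137% lower in the knockdown. The bulk of the features hardly moved: the median log2 fold change was -0.01, and the middle 90% of features lay between -0.35 and 0.34. At an unadjusted p under 0.05 the share was 9.51%, and 41.2% of all features had both arrays of one group above both arrays of the other, as had all 16 called genes. The genes were called on these same arrays, which favors such separation, so it adds no support for single genes below. The calls depended on the number of arrays in the fit: limma on the 4 mock arrays alone called 0 genes, and leaving out any single one of the 8 arrays left 0 to 2. An analysis of variance of the 4 mock arrays, named in the study's methods and called the methods' test here, gave 27 genes without and 0 with adjustment.

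**Figure D1:**
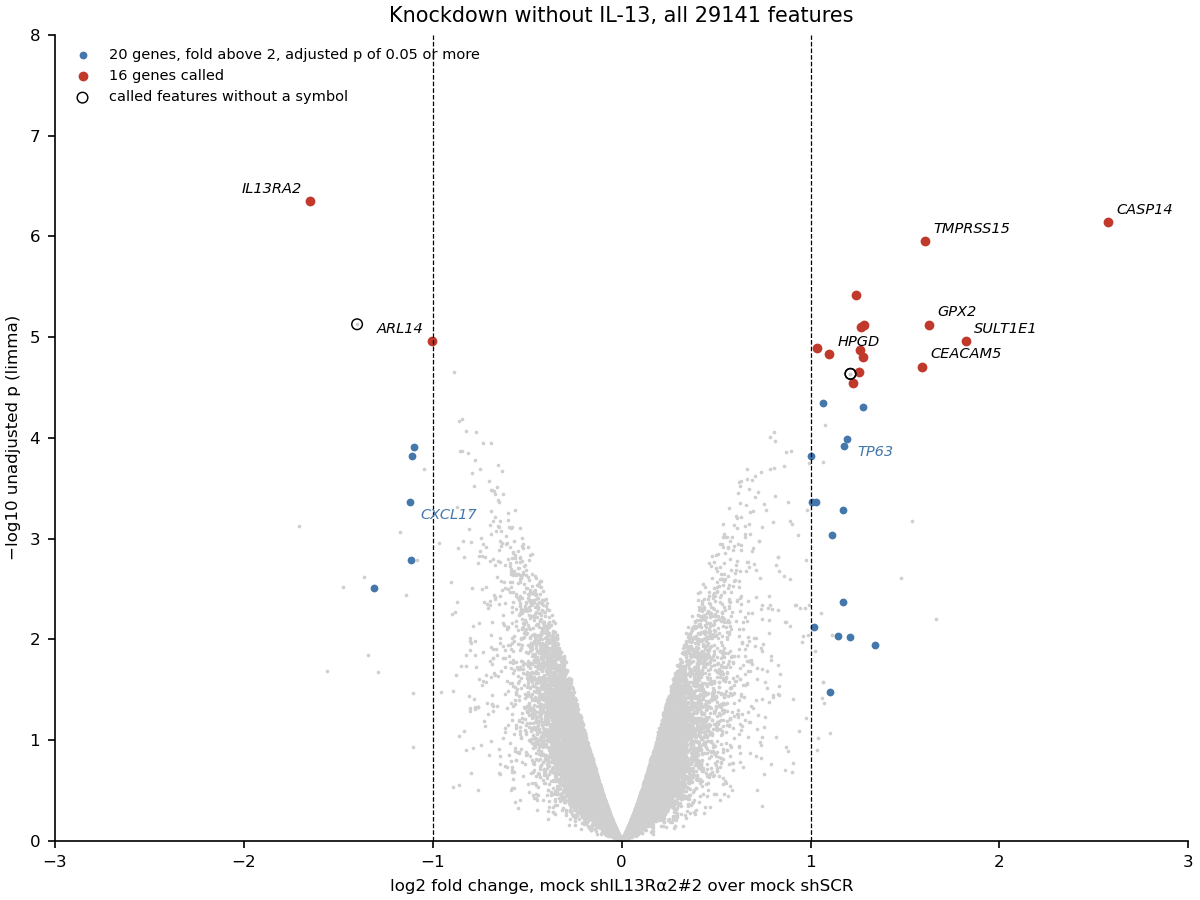
Each point is 1 of 29141 features, with the log2 fold change of mock shIL13Rα2#2 over mock shSCR cells on the horizontal axis and the unadjusted limma p on a −log10 scale on the vertical axis. The 16 called genes (red) lie mostly on the right, the 20 genes above 2-fold that were not called (blue) lie below them, open circles are called features without a symbol, grey points past the dashed 2-fold lines are other features without a symbol, and IL13RA2 and CASP14 stand highest.

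The targeted gene checks the labels. IL13RA2 read 8.09 and 8.07 in arrays 1 and 2 and 6.34 and 6.52 in arrays 5 and 6. Both knockdown arrays lay well below both control arrays, a 3.13-fold reduction (95% confidence interval of the log2 fold change -1.90 to -1.40, adjusted p = 0.0105 from limma). The transcript was thus lowered and still measured at 6.43 on the log2 scale, the mean of the knockdown arrays.

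No other gene of the receptor chain passed the test. The list held 18 genes, all on the array, of which 6 were higher and 12 lower in the knockdown, with a median log2 fold change of -0.03 against -0.01 over all features. The gene closest to the receptor in size was its ligand. IL13 read 3.99 and 3.76 in the mock shSCR arrays and 4.35 and 4.25 in the mock knockdown arrays, a log2 difference of 0.42 (95% confidence interval 0.14 to 0.70, adjusted p = 0.380 from limma). These groups did not overlap, but the values sit low on the scale, and among IL-13-treated arrays the difference had the other sign, at -0.24. The signaling receptor chain IL13RA1 differed by 0.23 (interval -0.02 to 0.49) and its partner IL4R by -0.12 (interval -0.43 to 0.18). For STAT6, the transcription factor of the pathway, the difference was -0.17 (interval -0.44 to 0.10). The kinases JAK1, JAK2, JAK3 and TYK2 differed by 0.16, -0.11, -0.02 and -0.03, and the common gamma chain gene IL2RG by -0.06. The feedback inhibitors SOCS1, SOCS3 and CISH differed by -0.20, 0.08 and 0.07 and the phosphatase gene PTPN6 by -0.04. IL4 differed by -0.01, STAT3 by 0.08, and for the IL13Rα2 ligand CHI3L1 and the co-receptor TMEM219 the differences were -0.01 and -0.19. Every interval of these 17 genes stayed within a 2-fold change in either direction, and 16 of them held 0.

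**Figure D2:**
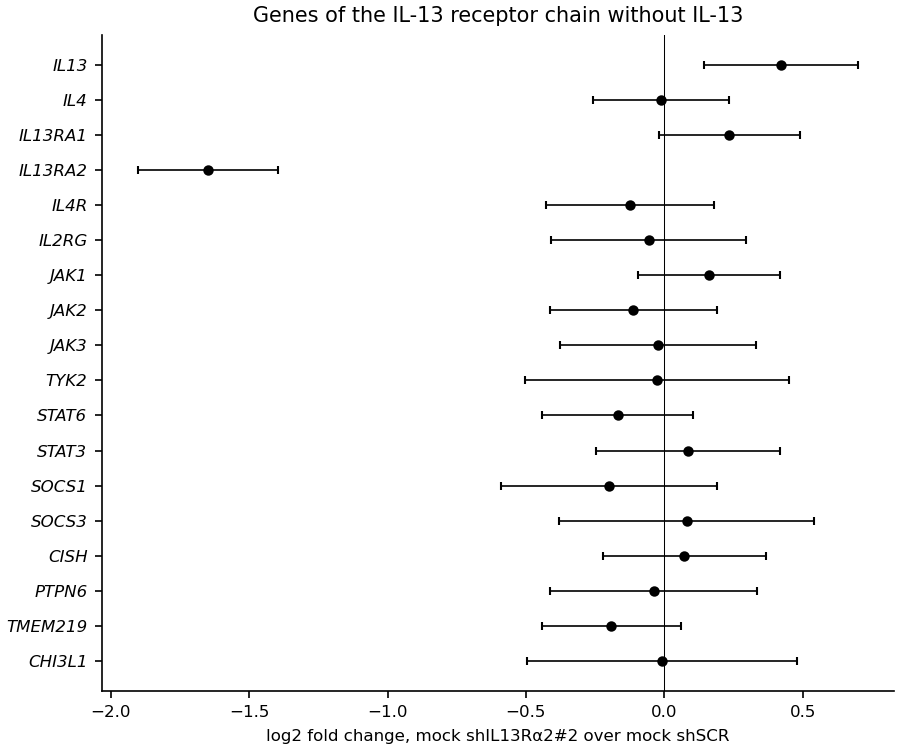
Points are log2 fold changes of mock shIL13Rα2#2 over mock shSCR cells for the 18 genes of the IL-13 receptor chain, and bars are 95% confidence intervals from limma over all 8 arrays. IL13RA2 stands alone at -1.65, and IL13 at 0.42 is the only other gene whose interval leaves out 0.

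The largest change was that of a gene of epidermal differentiation, and other called genes act at epithelial surfaces. CASP14, a caspase of the epidermis that takes part in cornification rather than apoptosis, read 5.94 and 6.41 in mock shSCR cells and 8.84 and 8.67 in mock knockdown cells. Its lowest knockdown array was far above its highest control array, with a 5.96-fold increase (interval of the log2 fold change 2.15 to 3.0, adjusted p = 0.0105 from limma). CEACAM5, the carcinoembryonic antigen of epithelial cell surfaces, went from 7.5 and 8.01 to 9.42 and 9.26, a 3.01-fold increase (adjusted p = 0.0356). Its control arrays differed from each other more than its knockdown arrays did, yet the groups did not overlap. CLCA2, a regulator of calcium-activated chloride conductance and a target of the p53 family, went from 5.96 and 6.05 to 7.40 and 7.11, or 2.39-fold (adjusted p = 0.0356).

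Several of the higher genes encode enzymes of metabolism and signaling. SULT1E1, which sulfates and so inactivates estrogens, read 2.67 and 2.40 in mock shSCR cells, low on the scale, and 4.57 and 4.14 in mock knockdown cells (3.54-fold, adjusted p = 0.0321 from limma). With the dimmest 30% of features left out, SULT1E1 was not tested. GPX2, the glutathione peroxidase of epithelia and a target of the transcription factor NRF2, read 5.59 and 5.90 against 7.53 and 7.22 (3.09-fold, adjusted p = 0.0292). HPGD, which breaks down prostaglandin E2, read 6.86 and 6.94 against 7.95 and 8.05 (2.14-fold, adjusted p = 0.0326). The gene listed as C3orf57, now SPTSSB, encodes a small subunit of serine palmitoyltransferase, the entry enzyme of sphingolipid synthesis. It read 7.61 and 7.46 against 8.90 and 8.62 (2.33-fold, adjusted p = 0.0415). PLCB1, a phospholipase C that acts downstream of G proteins, read 4.89 and 4.67 against 6.03 and 6.09 (2.43-fold, adjusted p = 0.0326). In each of these 5 genes both knockdown arrays exceeded both control arrays, which the call on the same arrays favors (41.2% of all features did not overlap).

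A further set lies at the cell surface or in the matrix. TMPRSS15, the membrane-bound protease enteropeptidase that activates trypsinogen in the gut, read 3.42 and 3.69 in mock shSCR cells, low on the scale, and 5.14 and 5.18 in mock knockdown cells. The step of 3.04-fold was far wider than the gap between arrays (interval of the log2 fold change 1.33 to 1.88, adjusted p = 0.0109 from limma). LPHN3, now ADGRL3, an adhesion G protein-coupled receptor of the latrophilin family, read 6.60 and 6.61 against 7.92 and 7.81 (2.40-fold, adjusted p = 0.0326). The type II cadherin CDH19 read 6.98 and 6.92 against 8.26 and 8.12 (2.36-fold, adjusted p = 0.0279). COL12A1, which encodes a collagen that sits on the surface of collagen fibrils, read 7.08 and 7.10 against 8.19 and 8.05 (2.05-fold, adjusted p = 0.0326). For LPHN3, CDH19 and COL12A1 the 2 control arrays nearly coincided.

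The remaining called genes act in the nucleus, on RNA or in vesicle transport. MLLT3, a reader of acylated histones that belongs to transcription elongation complexes, read 6.10 and 5.87 against 7.23 and 7.31 (2.43-fold, adjusted p = 0.0292 from limma). BICC1, an RNA-binding protein, read 4.46 and 4.64 against 5.94 and 5.70 (2.41-fold, adjusted p = 0.0292). ARL14, a small GTPase of the ARF-like family, was the only called gene besides the target that was lower. It read 7.20 and 7.15 against 6.19 and 6.15, a fold change of 2.01 (adjusted p = 0.0321). This lies at the fold limit, and after shifting the arrays to one median or a further quantile normalization ARL14 fell under it. Of the features without a symbol, 1 was lower by 1.40 on the log2 scale (6.54 and 6.66 against 5.33 and 5.07), and the other 2 held identical values in all 8 arrays and count as 1 measurement, higher by 1.21. NT5E, the ecto-enzyme CD73 that makes adenosine, passed the adjusted p (0.0356) below the fold limit, at 9.72 and 9.67 against 8.79 and 8.84, or 1.85-fold lower.

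The promoters of the called genes were read for letters of factors with a place in these pathways, and the matches to factor motifs are shown because they lie before the starts of 3 called genes. RefSeq windows of 250 bases before to 50 after the start (GRCh38.p14) matched 12 of the 16 genes. Both strands were searched, capitals mark the match, and no match overlapped another.
CASP14, AP-1 letters TGACTCA, chr19:15049275-15049311, plus strand: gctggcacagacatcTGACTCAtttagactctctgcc
GPX2, antioxidant response core TGACNNNGC on the opposite strand, chr14:64942844-64942882, minus strand: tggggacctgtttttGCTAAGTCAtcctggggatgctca
CLCA2, STAT letters TTCNNNGAA, chr1:86424096-86424134, plus strand: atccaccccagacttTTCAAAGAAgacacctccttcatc
The AP-1 letters began 190 bases before the CASP14 start, the antioxidant core 122 bases before that of GPX2, and the STAT letters 60 bases before that of CLCA2. Each of the 3 motifs was found in 1 of the 12 windows, against 4.92% (AP-1), 13.6% (antioxidant core) and 7.88% (STAT) of all 27305 promoter windows. The wider spacing that STAT6 favors, with 4 bases between TTC and GAA, was in 0 of the 12 windows and in 6.37% of all. The TATA letters TATAAA were in 3 of the 12, those of CLCA2, SULT1E1 and TMPRSS15, and in 12.0% of all. They began 200, 29 and 63 bases before the respective starts, in TMPRSS15 on the opposite strand. These are descriptions of letters in a short window, with no test.

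The 4 IL-13-treated arrays hold the same pair of constructs and are not among the arrays compared above, although all 8 arrays share the estimate of the spread. Genes were thus called partly for a small spread in these 4 arrays too, which favors small p-values and arrays that do not overlap. The pools were also the same, so these arrays cannot tell loss of the receptor from a difference between pools. The shares over all features below describe unselected features and are not a test of the 16 genes. All 16 genes differed in the same direction there, none of the 16 overlapped between the constructs (36.4% of all features did not), and all 16 had an unadjusted p under 0.05 (7.07% of all features). By the full rule 10 of the 16 were called again, against 0.0515% of all features. These were IL13RA2, ARL14, CASP14, GPX2, TMPRSS15, MLLT3, LPHN3, CDH19, HPGD and C3orf57. The 10 genes are 62.5% of the 16 called without IL-13 and 71.4% of the 14 called among IL-13-treated arrays. The median size of the log2 fold change was 1.27 without IL-13 and 1.21 with it. Leaving out any single array of the 8 left 0 to 4 of the 16 called among the IL-13-treated arrays.

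The sizes were close for most genes. TMPRSS15 differed by 1.61 without IL-13 and 1.67 with it, ARL14 by -1.0 in both, CASP14 by 2.58 and 2.33, GPX2 by 1.63 and 1.94, and MLLT3 by 1.28 and 1.40. Among the 6 genes not called again, COL12A1 differed by 0.80 (adjusted p = 0.103 from limma), BICC1 by 0.85 (0.123), CLCA2 by 0.83 (0.164), PLCB1 by 1.04 (0.0936) and CEACAM5 by 1.26 (0.120) in the IL-13-treated arrays. Of the 16 genes, SULT1E1 was the one whose difference shrank most. In mock arrays it was 1.82, whereas with IL-13 the arrays read 2.81 and 3.04 (shSCR) and 3.34 and 3.62 (knockdown), a difference of 0.56 (adjusted p = 0.594). The interaction, which tests whether the 2 differences are unequal, had an interval of -1.87 to -0.66 for SULT1E1 with an unadjusted p of 0.00139 and an adjusted p of 0.989. For IL13RA2 the interaction was 0.49 (unadjusted p = 0.0134). No feature passed the interaction after adjustment, with a smallest adjusted p of 0.624, while 4.47% of all features and 3 of the 16 genes had an unadjusted p under 0.05.

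The effect of IL-13 within each construct is set beside these values, and its comparisons share arrays with those of the knockdown. In IL-13-treated against mock shSCR cells the log2 difference was -1.44 for CASP14 (adjusted p = 0.0685 from limma), -0.91 for C3orf57, -0.87 for HPGD, -0.76 for GPX2 and -0.63 for CEACAM5. In knockdown cells the corresponding differences were -1.69 (adjusted p = 0.0343), -0.83, -0.71, -0.44 and -0.96. Of these 10 values only that of CASP14 in knockdown cells passed the adjusted p. Not all called genes were lower with IL-13: of the 16, 10 were lower in shSCR cells and 13 in knockdown cells. In shSCR cells LPHN3 differed by -0.71, while SULT1E1 differed by 0.39, ARL14 by 0.33, BICC1 by 0.26 and COL12A1 by 0.21. IL13RA2 rose with IL-13 in both lines, by 1.27 (adjusted p = 0.0135) and 1.76 (adjusted p = 0.00264).

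**Figure D3:**
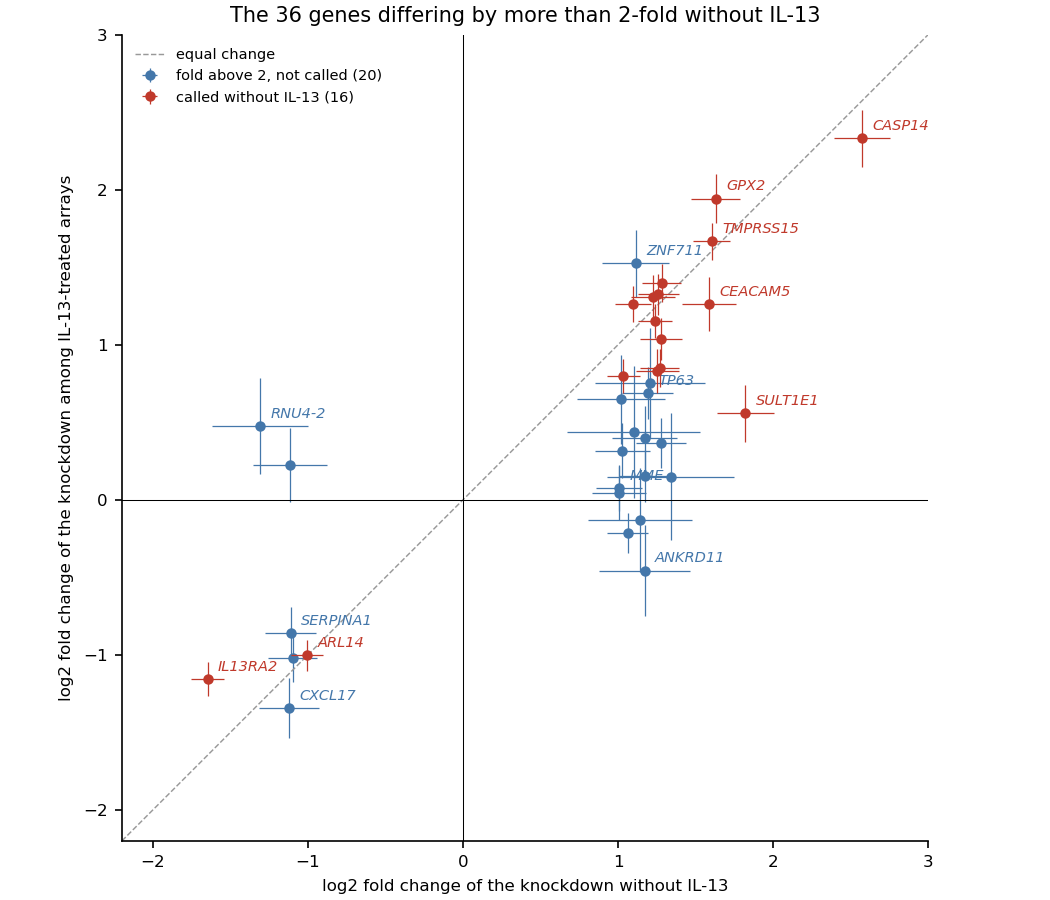
The log2 fold change of the knockdown without IL-13 (horizontal) is set against that among IL-13-treated arrays (vertical) for the 36 genes that differed by more than 2-fold without IL-13, with limma standard errors as bars and a dashed line of equal change. The 16 called genes (red) lie on the same side of 0 on both axes, SULT1E1 farthest from the line at 1.82 and 0.56, while many of the 20 genes that were not called (blue) lie near 0 on the vertical axis.

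Outside the calls, 20 genes differed by more than 2-fold at an adjusted p of 0.05 or more, 15 higher and 5 lower in the knockdown. The arrays of 19 of them did not overlap, beside 41.2% of all features, which the choice by fold on the same arrays favors. In the IL-13-treated arrays 15 of the 20 had the same sign, 5 of them with an unadjusted p under 0.05 (7.07% of all features), 3 were again above 2-fold and 0 were called, and the median difference in the direction of the mock arrays was 0.34. The fold limit chose these genes on the mock arrays, so the smaller second value is a description and not a test of the knockdown.

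The higher genes with the largest fold among them were LOC644714, LOC400986, ADAD2, TP63 and SULT1B1. LOC644714 is measured by 4 features whose differences ran from 0.48 to 1.34, and the largest read 2.99 and 4.14 against 5.14 and 4.66. LOC400986 read 5.78 and 5.49 against 6.76 and 7.06 (adjusted p = 0.0663 from limma). ADAD2, of a family of adenosine deaminase domain proteins of the testis, read 3.73 and 4.32 against 4.84 and 5.63 (adjusted p = 0.382), a wide spread for 2 arrays. SULT1B1, a sulfotransferase of the same family as SULT1E1, read 3.01 and 3.19 against 4.27 and 4.28 (adjusted p = 0.103). With IL-13 its arrays overlapped, at 2.79 and 3.28 against 3.26 and 3.11.

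The 5 lower genes were RNU4-2, CXCL17, PSPH, SERPINA1 and ZNF487P. For CXCL17, a chemokine of mucosal surfaces, the arrays read 8.04 and 8.23 against 6.99 and 7.03 (2.18-fold lower, adjusted p = 0.159 from limma), and the difference was -1.35 with IL-13. SERPINA1, the secreted protease inhibitor alpha-1 antitrypsin, read 6.35 and 6.86 against 5.51 and 5.48 (2.16-fold lower, adjusted p = 0.106), with -0.86 in the IL-13-treated arrays. ZNF487P differed by -1.10 and -1.02 without and with IL-13. For the spliceosomal RNA gene RNU4-2 and for PSPH, an enzyme of serine synthesis, the signs were opposite, at -1.31 against 0.47 and -1.12 against 0.23. PSPH has a second feature that differed by -0.10 without IL-13.

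For this comparison the study listed 36 differentially expressed genes, 29 higher and 7 lower. They are the 16 genes called here and the 20 above 2-fold that were not called. In its text the study names TP63, CFI, GPX2, SERPINB13, MLLT3, CXCL17, CD36, SERPINB3 and SERPINB4 for the profiling. It drew all of these genes from these arrays, so their direction on the arrays is not independent evidence. The study also measured TP63, CFI, GPX2, SERPINB13, MLLT3 and CXCL17 by real-time PCR. For TP63 it added Western blots and experiments in other cell lines, which are outside these arrays. GPX2 and MLLT3 are among the called genes. TP63, a p53 family transcription factor that maintains basal epithelium, read 4.87 and 5.06 in mock shSCR cells and 6.2 and 6.11 in mock knockdown cells. The groups were apart by 2.28-fold, and the adjusted p was 0.0996 from limma. Among 11 alternative settings other than leaving out arrays, TP63 was called in 4, with adjusted p between 0.00622 and 0.543. These 4 include limma and the methods' test without adjustment, which call on the unadjusted p (0.000103 for TP63 from limma). With IL-13 the arrays read 6.0 and 6.11 against 6.98 and 6.5, a difference of 0.69. CFI, a protease that inactivates complement C3b, differed by 0.98 (adjusted p = 0.169) without and 0.84 with IL-13. SERPINB13 differed by 0.65 (adjusted p = 0.406) and 0.88, and the fatty acid receptor gene CD36 by 0.56 (adjusted p = 0.518) and 0.99. SERPINB3 and SERPINB4, paralogs that can share probe signal, differed by 0.78 (adjusted p = 0.114) and 1.01 (adjusted p = 0.159) in mock arrays and by 0.18 and 0.04 in IL-13-treated arrays, where both shSCR and knockdown arrays of SERPINB4 read 9.28 to 9.55.

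In the gene lists, single members passed the test and the rest of each list did not. Over all lists 7 genes passed the adjusted p, all of them already described: IL13RA2, CLCA2, CASP14, CEACAM5, SULT1E1, GPX2 and COL12A1. Over all features 0.0686% passed and the median was -0.01, and the counts and medians of the lists stand beside these. The lists were written with earlier results of these data known, and several were built around a called gene. The counts are thus descriptions and not tests of a list.

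In the list of p63 and its targets, 1 of 21 members passed (CLCA2, higher), with a median of -0.02. The integrin gene ITGA3 differed by -0.58 and DST, which encodes a linker of hemidesmosomes, by 0.57, both without passing. Of 38 genes of the cornified envelope and late epidermal differentiation, CASP14 alone passed, with 18 higher, 20 lower and a median of -0.04. The members next in size had the opposite sign: the elastase inhibitor gene PI3 differed by -0.74, the envelope precursor gene SPRR2D by -0.72 and the kallikrein gene KLK5 by -0.64 (adjusted p = 0.212, 0.450 and 0.216 from limma). None of 27 keratins passed. Of these, 8 were higher and 19 lower. The arrays did not overlap for 4 of the higher and 13 of the lower keratins, beside 41.2% of all features. The median was -0.13, with KRT81 at -0.69, KRT18 at -0.64 and KRT23 at -0.64. None of 18 hemidesmosome, laminin and desmosome genes passed either.

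Among 21 STAT6 targets 0 passed, with 10 higher, 11 lower and a median of -0.02. The largest differences were those of SERPINB4 and SERPINB3, followed by CD36, and 4 members had an unadjusted p under 0.05, all higher, beside 9.51% of all features in either direction. In the clade B serpins 0 of 13 passed. Of 11 caspases CASP14 passed, and the median was 0.09. Of 11 CEACAM genes CEACAM5 passed, while CEACAM1 differed by -0.52 and CEACAM6 by 0.49 (adjusted p = 0.285 and 0.313 from limma). Of 12 cytosolic sulfotransferases SULT1E1 passed, 8 were lower and the median was -0.07.

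In the list of NRF2 and glutathione genes 1 of 26 passed, GPX2, with a median of 0.04. AKR1C2, an aldo-keto reductase, differed by 0.67 (adjusted p = 0.144 from limma) without and 0.62 with IL-13, and SLC7A11, the cystine transporter gene, by 0.67 (adjusted p = 0.193) and 0.74. GSTP1 differed by -0.46, and over the list 15 members were higher and 11 lower.

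Of 28 matrix proteases and collagens COL12A1 passed, while 20 were lower. The protease inhibitor genes TIMP1 and TIMP3 differed by -0.81 and 0.74 (adjusted p = 0.195 and 0.505 from limma), with -0.81 and 0.85 in the IL-13-treated arrays. In the genes linked to lung metastasis of MDA-MB-231 cells, a list that holds IL13RA2 itself, the target was the 1 member of 17 that passed. There CXCL1 differed by 0.53, the matrix protein gene TNC by -0.45 and MMP1 by 0.44. None of 19 genes of the epithelial-mesenchymal transition passed, with VIM at -0.57 (adjusted p = 0.216) and ITGA5 at -0.48. None of 21 chemokine ligands passed.

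No member of the lists of cell state passed the test. None of 25 DNA replication and mitosis genes passed, 19 were lower and the median was -0.12, with MCM7 at -0.39 and CDC20 at -0.25. None passed among 25 interferon-stimulated genes (median -0.05), 24 hypoxia and glycolysis genes (-0.02), 18 genes of endoplasmic reticulum stress (0.04), 16 of cholesterol synthesis (0.00), 7 of serine and glycine synthesis (0.00), 12 of the EGF receptor family (0.02, with AREG at -0.44) and 18 cancer-testis antigens (-0.06). Of 10 myoepithelial genes none passed, with MME, the surface peptidase neprilysin, at 1.00 (adjusted p = 0.106 from limma) without and 0.08 with IL-13.

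**Figure D4:**
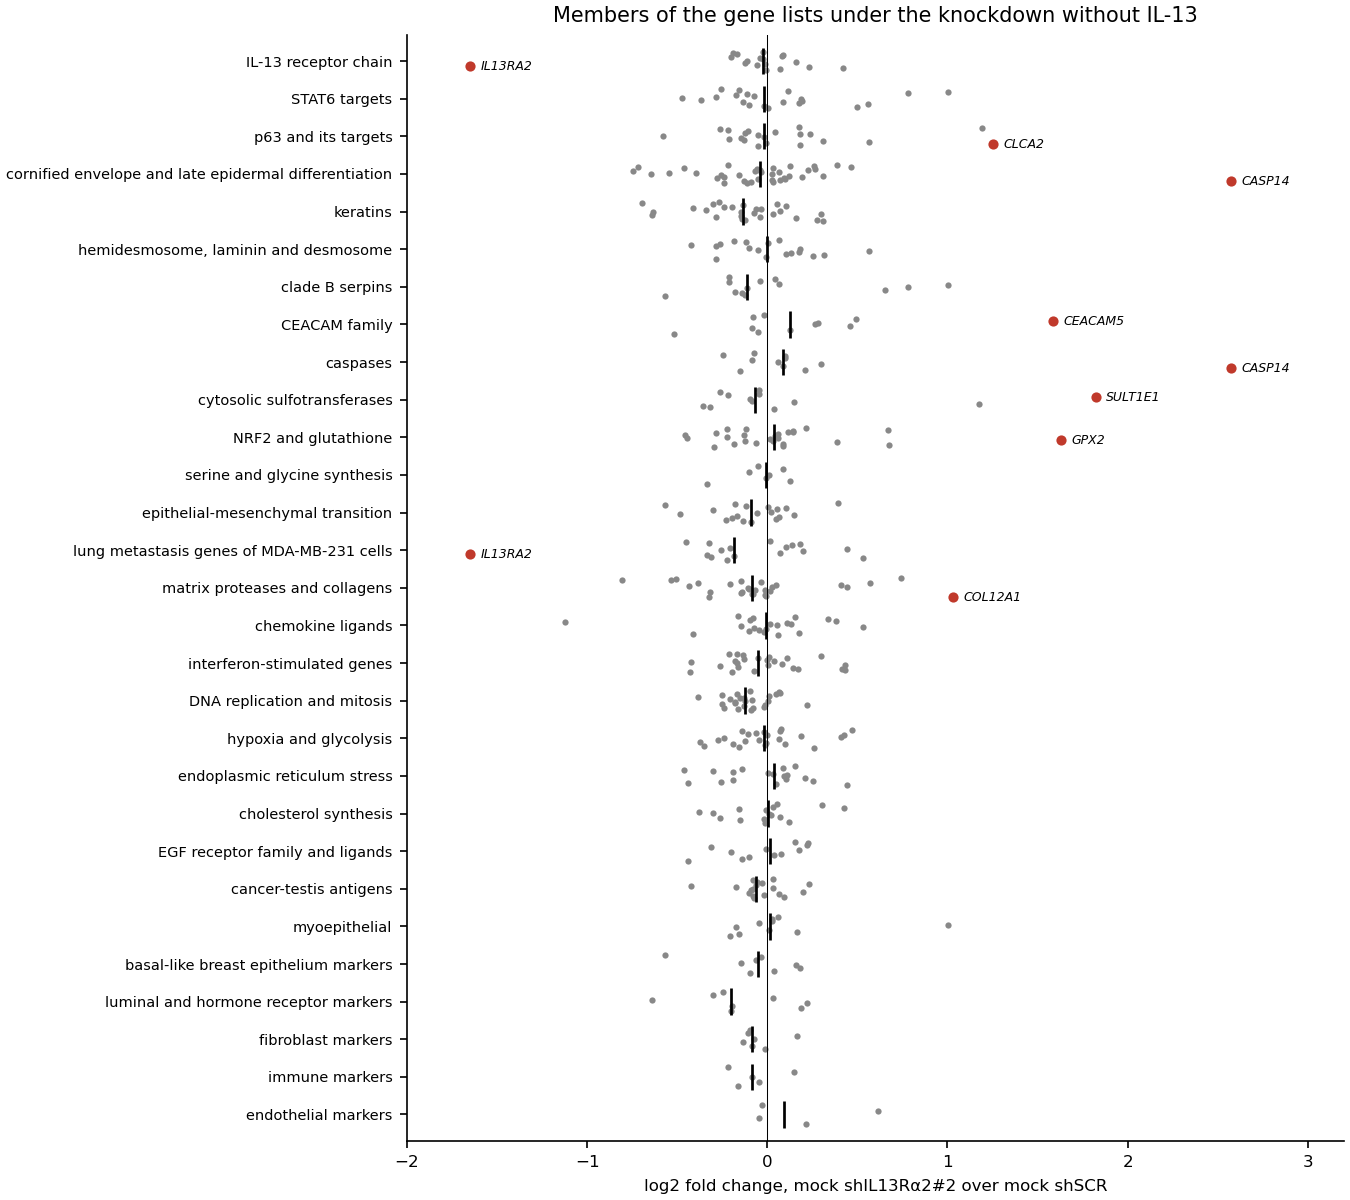
Each row is a gene list, each point the log2 fold change of 1 member in mock shIL13Rα2#2 over mock shSCR cells, and the black bar the median of the list. Red points with names are members at an adjusted p under 0.05, and the bars lie between -0.20 and 0.13.

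No cell type marker passed the test. The lists held 8 basal-like, 8 luminal, 7 fibroblast, 5 immune and 4 endothelial markers. The summed linear level of the fibroblast markers was 181 to 188 in the mock shSCR arrays and 173 to 182 in the knockdown arrays, and that of the immune markers 124 to 128 and 116 to 124. For the luminal markers it was 2313 to 2639 and 1864 to 2127, and for the basal-like markers 4693 to 4963 and 4420 to 4568, with the knockdown arrays lower in both. The endothelial markers summed to 323 and 377 in mock shSCR arrays and 509 and 508 in mock knockdown arrays, through PECAM1 alone (log2 difference 0.61, adjusted p = 0.217 from limma), while CDH5, VWF and KDR differed by 0.22, -0.03 and -0.04. The part of these sums in the called genes was not tested.

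Among IL-13-treated arrays 4 genes were called that had not been called without IL-13, and they are named here after their values were seen. In mock arrays NT5E differed by -0.89, INHBA, which encodes a subunit of activin, by -0.67 (adjusted p = 0.147 from limma), DHRS9, a retinol dehydrogenase gene, by -0.86 (adjusted p = 0.0823), and the cytokine gene IL1A by 0.81 (adjusted p = 0.114). With IL-13 the differences were -1.02, -1.10, -1.09 and 1.36. All 4 had the same sign in both comparisons.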

How the data were processed

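The samples were 8 arrays of MIV-Luc cells, 2 for each combination of hairpin and treatment, and the members described here are the 4 mock-treated arrays. The authors deposited log2 expression values, 1 for each gene-level feature and array, which per the labels came from RMA, that is, background-corrected, quantile-normalized and summarized over the probes of each feature, in Affymetrix Expression Console version 1. Of 33297 features, 4156 were controls or spikes and were dropped, and the other 29141 entered the tests. Of these, 7102 carried no usable symbol (38 had been turned into calendar entries), and 2 named several genes. The others held 20193 symbols, of which 17206 were current and 2331 were matched as older ones. Columns were assigned to groups by the hairpin and treatment in their headings, and arrays are numbered by the running number there. Columns of fold changes or p-values made by the authors were not used.

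Group means were fitted over all 8 arrays in R version 4.3.3 by limma version 3.58.1 (4 residual and 3.86 prior degrees of freedom), and p-values were adjusted by the Benjamini-Hochberg method over all tested features. A gene was called at an adjusted p under 0.05 and a fold change above 2, the limits of the study's methods. The one-way analysis of variance named there, whose groups are not stated, was run on the 4 mock arrays and is called the methods' test. The same fit gave the knockdown among IL-13-treated arrays and the interaction. Named were all called genes, the 5 higher and 5 lower genes with the largest fold among the others above 2-fold whose arrays did not overlap, the genes the study names, the receptor chain, and up to 3 members of each list. Where a gene of a list had several features, the one with the highest mean was used. Members and lists were chosen with earlier results of these data known. The fitting step was tested on simulated data. Promoter windows of RefSeq (GRCh38.p14) reached from 250 bases before to 50 after a gene's start, with the first window listed for each symbol. Alternatives were other normalizations, filters, fold limits, a variance trend, 1 feature per gene and each array left out. Hairpin sequences were not used here.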

Additional observations from a re-analysis of the deposited data

How the results depend on the processing

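The count of 16 called genes was 15 to 17 with a fold limit of 1.5 or none, without the dimmest 30% of features, and with either further normalization. It was 27 by the methods' test without adjustment, 36 by limma without adjustment, 28 with an intensity trend and robust prior and 23 with 1 feature per gene, each of which held the 16 genes. It was 0 by the methods' test with adjustment and 0 by limma on the 4 mock arrays. Without 1 array it was 0 to 2 (CASP14 alone without array 2, CASP14 and IL13RA2 without any one IL-13-treated array), as the residual degrees of freedom were then fewer and a lone array was assumed to vary like the others. The log2 fold change of IL13RA2 kept its value of -1.65 but lost its call by the methods' test with adjustment (adjusted p = 0.537) and by limma on the 4 arrays (adjusted p = 0.174), and lay between -1.74 and -1.55 without 1 array. Of the 16 genes, 10 were called among IL-13-treated arrays and 0 to 4 without 1 array. The 7 list members at an adjusted p under 0.05 became 68 (methods' test without adjustment), 96 (limma without adjustment), 32 (trend and robust prior), 11 (1 feature per gene) and 0 (methods' test with adjustment, and limma on 4 arrays), and 0 to 2 without 1 array. Among named genes, none that was called changed sign. Near 0, IL4 turned to 0.0056 with a further quantile normalization. Differences that changed sign with 1 array left out ran from -0.0468 to 0.0231 for IL4, -0.194 to 0.0805 for IL2RG, -0.172 to 0.122 for JAK3, -0.279 to 0.227 for TYK2, -0.0205 to 0.190 for STAT3, -0.409 to 0.0088 for SOCS1, -0.161 to 0.320 for SOCS3, -0.0248 to 0.167 for CISH, -0.254 to 0.0074 for IL4R, -0.252 to 0.174 for PTPN6 and -0.345 to 0.331 for CHI3L1.

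No paired analysis was possible because the column headings carry running numbers over all arrays and not the replicate numbers of the sample labels.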
